A study of Mus musculus with 6 samples.

Results

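The genes described here are the chemokines of the CC, CXC, C and CX3C families and their receptors, read in the livers of 3 mice that lack sphingosine-1-phosphate (S1P) lyase and 3 wild-type (WT) mice. Members were all probe sets of the array annotated to exactly 1 symbol that is Ccl, Cxcl or Ccr followed by a number, or that is Cx3cl1, Xcl1, Cxcr3, Cxcr5, Cxcr6 or Ackr3. The receptors Ccr2, Cxcr2, Cxcr4 and Cx3cr1 were left out. This gave 70 of the 45037 probe sets that are not array controls, for 46 genes, of which 33 are ligands and 13 receptors. Both groups were untreated mice of a mixed C57BL6 and 129sv background. The sources used here do not give age, sex, litter or the deleted part of the gene. One Affymetrix mouse expression array was run per animal on RNA of the whole liver, so each value sums over all liver cell types, and a change in the number of cells of a type cannot be told apart from a change in RNA per cell. With 3 arrays in each group, precision is limited throughout.

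Chemokines are small secreted proteins that direct the migration of leukocytes. They are named after the spacing of their first cysteines. A subset of CXC chemokines carries the amino acids Glu-Leu-Arg (ELR) before the first cysteine and attracts neutrophils through CXCR2, whereas the interferon-inducible CXC chemokines attract T and NK cells through CXCR3. CC chemokines act mainly on monocytes, macrophages and lymphocytes. Their receptors couple to inhibitory G proteins, and in the liver hepatocytes, Kupffer cells, sinusoidal endothelium and stellate cells can all secrete chemokines.

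The labels held for the targeted gene. The brightest Sgpl1 probe set read 2.46 to 2.99 log2 in knockout livers and 6.65 to 6.90 log2 in WT livers. Hepatocyte markers were at the top of the scale in both groups, with Alb at 14.28 log2 in knockout and 14.32 in WT. Transcripts of control RNAs added before labelling were 0.75 log2 brighter in knockout, and the 3' minus 5' signal of Actb, a measure of transcript integrity, ran from 1.12 to 1.45 log2 in knockout and from 0.81 to 0.97 in WT. These technical values move with genotype, and their part in the results was not tested.

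Chemokine genes differed from WT in both directions, with more rises than falls. Genes were read by their brightest probe set, and probe sets with a mean under the 40th percentile of the array (3.58 log2) were set aside as dim, which left 30 of the 46 genes. Calls required p under 0.05 in limma after Benjamini-Hochberg adjustment across the 13370 genes that were tested, and only called genes are said to have risen or fallen. Among the 30 genes tested, 7 rose and 1 fell, which is 26.7% called, against 18.6% of all genes tested (10.5% rose and 8.09% fell). The genes that rose were Cxcl1, Cxcl9, Ccl3, Ccl5, Ccl6, Ccl9 and the receptor gene Ccr1, and the gene that fell was Ccl27a; Ccl3 and Ccl9 turned sign when arrays were centred on the added control RNAs. The ranges of knockout and WT values did not overlap in 16 of the 30 genes, against 40.8% of all genes tested. The median difference, knockout minus WT, was -0.0061 log2 over the 30 genes and -0.047 over all genes tested. Over all 70 member probe sets, with none set aside, 13 rose and 3 fell, against 5.92% of all probe sets that rose and 4.56% that fell. In 29 of the 70 the groups did not overlap, against 32.2% of all probe sets.

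**Figure D1:**
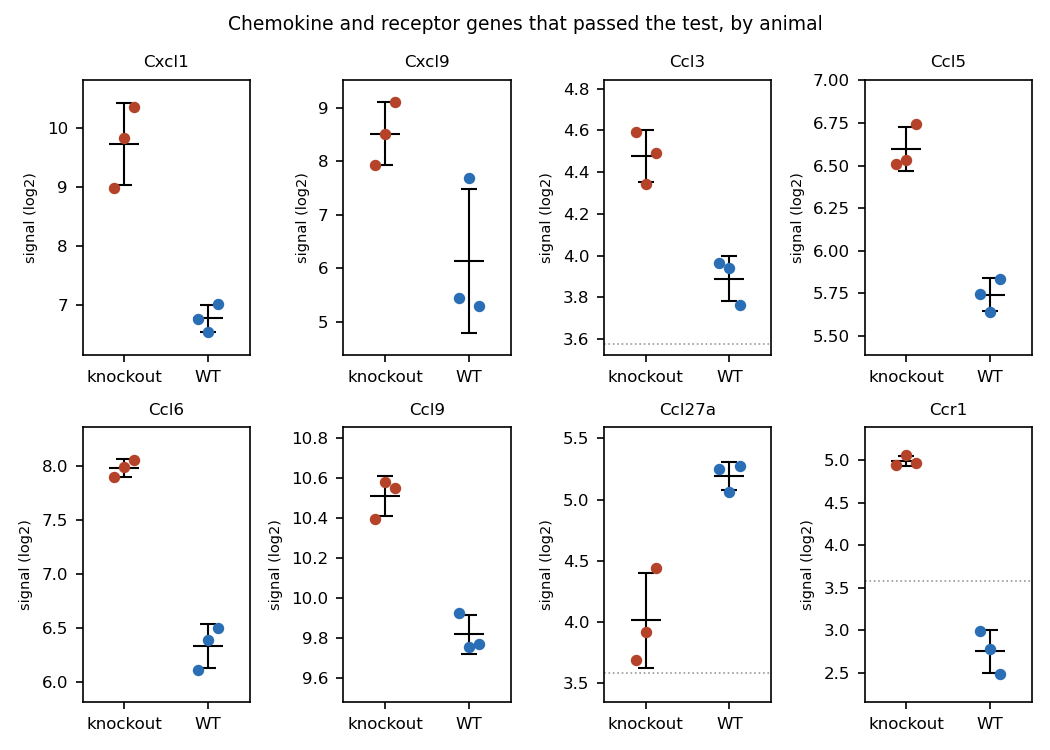
Signal (log2) of the 8 genes that passed the test, by the brightest probe set of each. Points are single animals, 3 knockout at the left and 3 WT at the right of each panel, bars are the mean and SD, and the dotted line, where it is in range, is the 3.58 log2 level for dim probe sets. The groups lie apart in every panel; one WT animal approaches the knockout values in Cxcl9 alone, and the WT values of Ccr1 lie below the dotted line.

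The ELR chemokine Cxcl1 showed the highest rise among the member genes tested. Cxcl1 is a neutrophil attractant that hepatocytes and other liver cells secrete in inflammation. Its brightest probe set read 8.99, 9.84 and 10.36 log2 in knockout livers, against 6.77, 6.55 and 7.01 log2 in WT livers. All knockout animals were above all WT animals, and the spread was wider in knockout (SD 0.70) than in WT (SD 0.23). The difference was 2.95 log2 (SE 0.32, n = 3 per group, 7.74-fold, limma adjusted p = 0.000879). The other Cxcl1 probe sets, taken from a fit over all probe sets without a filter, rose by 3.51 log2 (SE 0.44, adjusted p = 0.00148) and 0.98 (SE 0.23, adjusted p = 0.0268). In each of the 3 Cxcl1 probe sets, knockout replicate 3 was highest and knockout replicate 1 lowest of the knockout animals. The weakest of the 3 kept its call in 1 of 6 fits that left out 1 array, at 0.75 to 1.25 log2, and its adjusted p reached 0.0953. The other 2 kept theirs in 6 of 6.

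Cxcl2, a close relative of Cxcl1 that macrophages and neutrophils secrete, was dim and was not among the 30 genes tested. It read 3.90, 3.41 and 4.49 log2 in knockout livers, against 3.21, 2.70 and 2.81 log2 in WT livers, so that the groups did not overlap. In the fit over all probe sets Cxcl2 rose by 1.03 log2 (SE 0.25, adjusted p = 0.0305), with the WT mean within the dim range, so that background limits this value. This call was lost without knockout replicate 1 (1.04 log2, adjusted p = 0.0906), knockout replicate 3 (0.75, adjusted p = 0.0532), WT replicate 2 (0.92, adjusted p = 0.0927) as well as without WT replicate 3 (0.98, adjusted p = 0.0689). Cxcl3, Cxcl5 and Cxcl15, the other ELR chemokines among the members, had means over all arrays under the dim level. Of the 2 Cxcl15 probe sets, 1 averaged 3.44 log2 in knockout and 3.61 in WT, just above that level. The probe sets of Cxcl3, Cxcl5 and Cxcl15 differed by -0.17 to 0.18 log2 and were not called. Ppbp, a chemokine outside the rule, rose by 3.73 log2 (SE 0.27), more than Cxcl1.

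Promoters of the family are shown because Cxcl1, Cxcl2 and Cxcl3 share a sequence element. Cxcl3 was near background in both groups and Cxcl2 in WT, and the responses of the 3 genes were not compared by a test. Of the 46 genes, 33 had a promoter in the RefSeq table (build GRCm38.p6), and the 250 bases before each gene's start were searched on both strands for the NF-kappaB consensus, for the core of the interferon-stimulated response element, a pair of TTTC repeats 2 bases apart, and for the interferon gamma activated site TTCNNNGAA. Each of the sequences below is written 5' to 3' on the gene's strand and ends at the base before the start. Capitals mark the motif matches.
Cxcl1, chr5:90891125-90891244, plus strand: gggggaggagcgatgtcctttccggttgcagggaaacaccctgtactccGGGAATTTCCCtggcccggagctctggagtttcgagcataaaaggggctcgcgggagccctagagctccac
Cxcl2, chr5:90903779-90903898, plus strand: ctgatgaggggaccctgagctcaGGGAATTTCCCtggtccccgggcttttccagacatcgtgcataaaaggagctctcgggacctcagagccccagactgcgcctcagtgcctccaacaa
Cxcl3, chr5:90785981-90786100, plus strand: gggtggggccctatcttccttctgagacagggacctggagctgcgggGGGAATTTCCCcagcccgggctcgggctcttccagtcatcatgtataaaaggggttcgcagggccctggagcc
Cxcl10, chr5:92348890-92349139, minus strand: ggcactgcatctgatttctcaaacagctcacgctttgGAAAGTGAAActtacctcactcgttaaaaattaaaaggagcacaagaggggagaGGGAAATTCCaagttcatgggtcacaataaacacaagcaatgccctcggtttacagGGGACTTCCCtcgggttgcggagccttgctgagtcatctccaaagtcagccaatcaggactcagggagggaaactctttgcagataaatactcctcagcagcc

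The NF-kappaB match is the same 11 bases, GGGAATTTCCC, in Cxcl1, Cxcl2 and Cxcl3, where matches on the plus and minus strands overlap. It lies 71 to 61 bases before the start of Cxcl1, 97 to 87 before that of Cxcl2 and 73 to 63 before that of Cxcl3. Cxcl10 holds 2 NF-kappaB matches, from 159 and from 103 bases before its start, and 1 match to the interferon-stimulated core on the other strand, from 213 bases before it. In all, 7 of the 33 member promoters hold an NF-kappaB match, against 3.75% of 27025 promoters. Of these 7, Cxcl1 and Ccl9 belong to genes that passed the test, and the other 5 belong to Cxcl2, Cxcl3, Cxcl10, Ccl20 and Ccr3. The interferon-stimulated core was found in 2 member promoters, against 3.04% of all, and the interferon gamma site in 4, against 7.18% of all. Of the 8 genes that rose or fell, 7 had a promoter in the table, and none of these 7 matched either interferon motif in this window. These matches describe the letters of the sequence only.

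The CXCR3 ligands Cxcl9 and Cxcl10, which are induced by interferon and attract activated T cells and NK cells, were higher in every knockout liver than in any WT liver. Cxcl9 read 7.92, 8.51 and 9.10 log2 in knockout livers, against 5.44, 7.70 and 5.29 log2 in WT livers. WT replicate 2 stood 2.33 log2 above the mean of the other WT livers and close to the lowest knockout liver. Cxcl9 rose by 2.37 log2 (SE 0.61, 5.17-fold, limma adjusted p = 0.0319). The second Cxcl9 probe set, in the fit over all probe sets, rose by 1.82 log2 (SE 0.24, adjusted p = 0.00185) and kept its call in 6 of 6 fits that left out 1 array.

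Cxcl10 read 6.91, 6.57 and 6.69 log2 in knockout livers, against 4.83, 6.51 and 5.36 log2 in WT livers. WT replicate 2 was again the highest WT liver, only just below the lowest knockout liver. The Cxcl10 difference of 1.16 log2 (SE 0.37, 95% confidence interval 0.30 to 2.02) did not pass (adjusted p = 0.0657). Without WT replicate 2, Cxcl9 differed by 3.15 log2 (adjusted p = 0.000957) and Cxcl10 by 1.63 log2 (adjusted p = 0.00256), both of them called. That liver was singled out by these same values, so larger differences without it were bound to follow. Cxcl9 lost its call without any other single array, at 1.95 to 2.67 log2 and adjusted p-values of 0.0573 without knockout replicate 1, 0.0984 without knockout replicate 2, 0.0850 without knockout replicate 3, 0.0978 without WT replicate 1 and 0.0708 without WT replicate 3. The third CXCR3 ligand, Cxcl11, differed by -0.20 log2 (SE 0.19, adjusted p = 0.466), and its second, dim probe set by 0.18. Cxcr3 itself read 4.37, 4.39 and 4.49 log2 in knockout livers, against 4.64, 4.73 and 4.43 log2 in WT livers, and the difference of -0.18 log2 (95% confidence interval -0.45 to 0.084) did not pass.

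The same WT liver was the highest of the WT group in 11 of 12 tested genes of a list of interferon gamma targets. It was also the highest WT liver in the summed signal of Kupffer cell markers (12.57 log2, against 12.21 and 11.84). The same held for NK cell markers (6.25, against 5.78 and 5.69), whereas for neutrophil markers it was the lowest (9.11, against 9.35 and 9.44). Whether its high rank is particular to interferon targets was not tested. Gbp2, a guanylate-binding protein of interferon-treated cells, read 7.65, 8.06 and 9.67 log2 in knockout livers, against 5.12, 7.48 and 4.48 log2 in WT livers. WT replicate 2 also exceeded all 3 knockout livers in Psmb9, a subunit of the immunoproteasome, at 8.48 log2, against 7.92 to 8.22 in knockout. In this list 2 of 12 genes rose and none fell, beside 10.5% of all genes tested that rose, Irf8 (1.61 log2, SE 0.19) and Gbp2 (2.77, SE 0.79), while Tap1 differed by 1.25 (SE 0.40) without passing. Without WT replicate 2, 9 genes of the list rose, beside 1136 of all 13363 genes tested in that fit. This liver was singled out by its high values in these same genes, so the higher count follows in part from that choice. Psmb9 and the other interferon genes plotted were named after their values were seen.

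**Figure D2:**
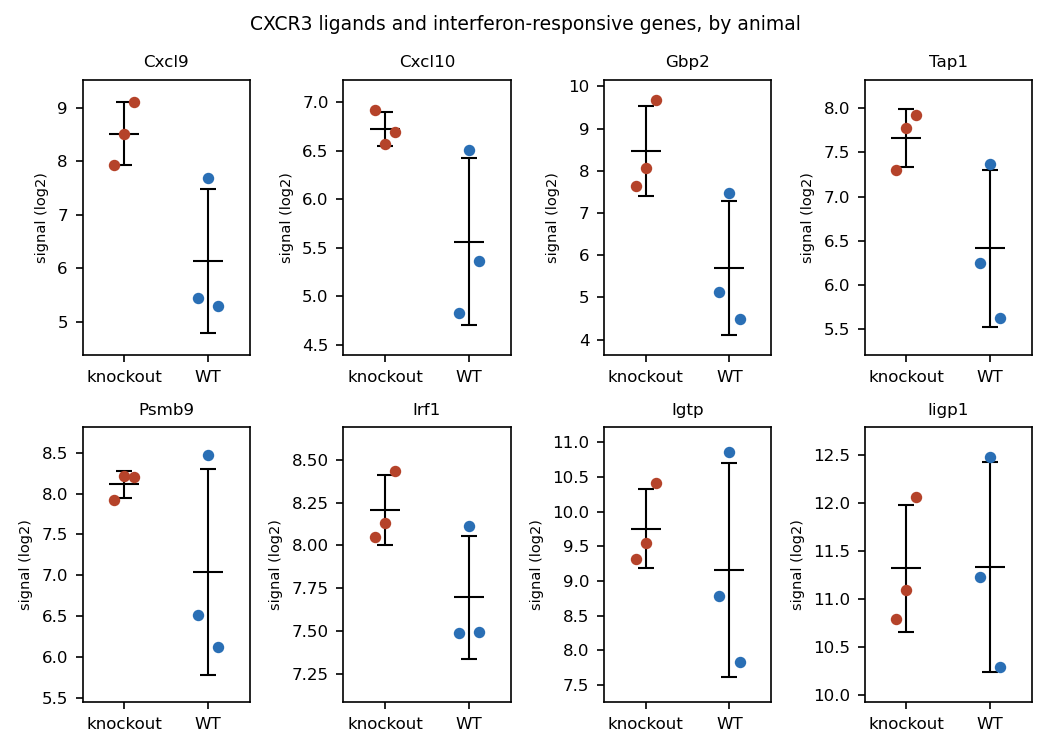
Signal (log2) of Cxcl9, Cxcl10 and 6 interferon-responsive genes. Points are single animals, 3 knockout at the left and 3 WT at the right of each panel, and bars are the mean and SD. In each panel 1 WT animal, replicate 2, lies well above the other WT animals, at 7.70 log2 for Cxcl9 and 6.51 log2 for Cxcl10.

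None of the other CXC chemokines passed in the gene fit. Cxcl12, the ligand of CXCR4 and ACKR3 that stromal cells make at a steady level and that retains leukocytes in tissues, read 9.16, 8.89 and 8.73 log2 in knockout livers, against 9.72, 9.22 and 9.43 log2 in WT livers. Every knockout value was below every WT value, with a difference of -0.53 log2 (SE 0.17, limma adjusted p = 0.0593). It passed without WT replicate 2 (-0.65 log2, adjusted p = 0.0461). A second bright Cxcl12 probe set, in the fit over all probe sets, fell by 0.64 log2 (SE 0.15, adjusted p = 0.0257). That call was lost without knockout replicate 2 (-0.62 log2, adjusted p = 0.0933), knockout replicate 3 (-0.53, adjusted p = 0.0640), WT replicate 1 (-0.59, adjusted p = 0.0844) and likewise WT replicate 2 (-0.63, adjusted p = 0.0737). The third Cxcl12 probe set differed by -0.073 log2.

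Of 6 tested markers of stellate cells, a source of Cxcl12, 2 fell (Lrat and Reln), none rose and 4 were not called. Of all genes tested 8.09% fell. The summed signal of these markers was 10.74 to 10.79 log2 in knockout and 11.04 to 11.13 in WT. Dcn, which was not called, averaged 10.21 log2 in knockout and 10.40 in WT, so that this sum reads mainly Dcn. Of 7 endothelial markers 1 rose and 1 fell, and their summed signals overlapped, at 10.37 to 10.65 log2 in knockout and 10.48 to 10.52 in WT. The part of these markers in the Cxcl12 values was not tested.

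Cxcl16, a membrane-bound ligand of CXCR6, read differently on its probe sets. The brighter one differed by 0.20 log2 (SE 0.13, adjusted p = 0.326), with overlapping groups. The other read 5.86, 5.73 and 5.39 log2 in knockout livers, against 5.07, 5.27 and 4.42 log2 in WT livers, a difference of 0.74 log2 (SE 0.22) that did not pass in the fit over all probe sets (adjusted p = 0.0678). Cxcl13, a B cell attractant, Cxcl14 and Cxcl17 differed by -0.19, -0.079 and -0.42 log2 without passing.

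**Figure D3:**
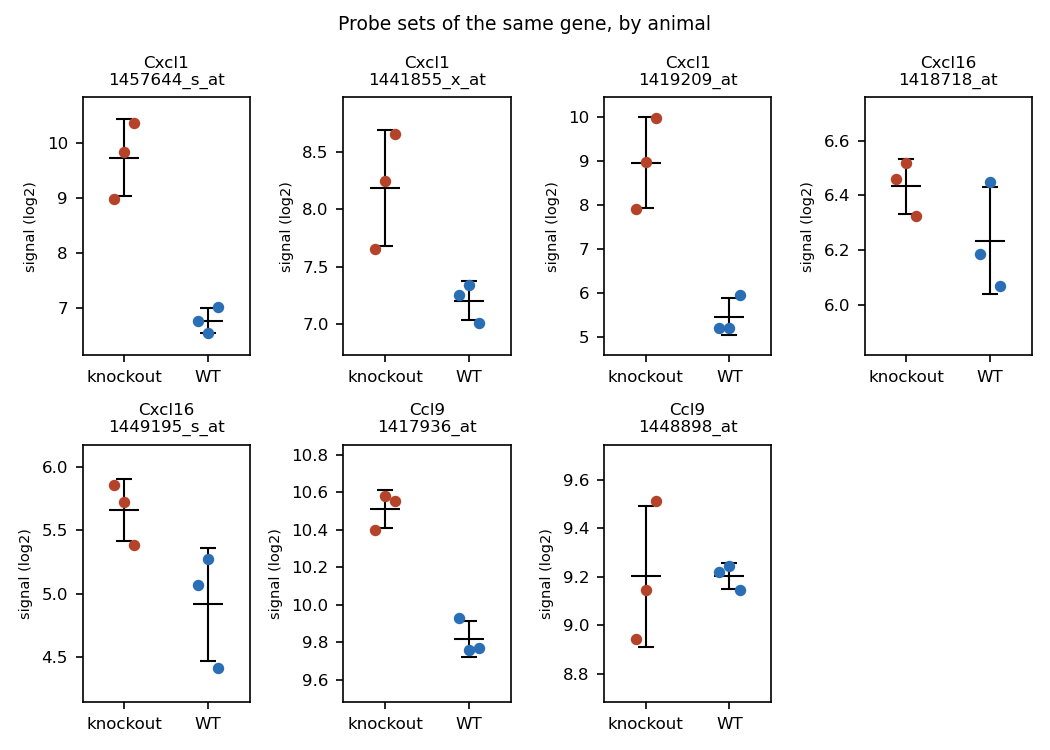
Signal (log2) of all probe sets of Cxcl1, Cxcl16 and Ccl9. Points are single animals, 3 knockout at the left and 3 WT at the right of each panel, and bars are the mean and SD. The groups lie apart on all 3 probe sets of Cxcl1, with differences of 2.95, 0.98 and 3.51 log2, but on 1 of 2 for Ccl9.

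The CC chemokines Ccl6 and Ccl9, which myeloid cells of rodents make and which bind Ccr1 in mice, both rose. Ccl6 read 7.90, 7.99 and 8.06 log2 in knockout livers, against 6.11, 6.39 and 6.50 log2 in WT livers. Neither group spread widely, and the groups were well apart. Ccl6 rose by 1.65 log2 (SE 0.13, 3.13-fold, limma adjusted p = 0.000255), and its second probe set by 1.42 (SE 0.14, adjusted p = 0.000438 in the fit over all probe sets). Both Ccl6 probe sets kept their call in 6 of 6 fits that left out 1 array.

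Ccl9 read 10.40, 10.58 and 10.55 log2 in knockout livers, against 9.93, 9.76 and 9.77 log2 in WT livers. The groups did not overlap on this probe set, and Ccl9 rose by 0.69 log2 (SE 0.11, 1.62-fold, adjusted p = 0.00395), though with arrays centred on the added control RNAs it differed by -0.056. A second, also bright probe set of Ccl9 read 8.95, 9.15 and 9.51 log2 in knockout livers, against 9.22, 9.24 and 9.14 log2 in WT livers. There the groups overlapped and the difference was -0.0013 log2 (95% confidence interval -0.34 to 0.34). With the mean of its probe sets, Ccl9 differed by 0.35 log2 and was not called (adjusted p = 0.0832).

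Among the inflammatory CC chemokines, Ccl5 and Ccl3 rose, and 7 of the 9 genes tested did not pass. Ccl5, a T cell and monocyte attractant made by T and NK cells among others, read 6.51, 6.53 and 6.75 log2 in knockout livers, against 5.75, 5.64 and 5.83 log2 in WT livers. The knockout values were all higher, and Ccl5 rose by 0.85 log2 (SE 0.12, 1.81-fold, limma adjusted p = 0.00279). It kept its call in 6 of 6 fits that left out 1 array but not with arrays centred on the added control RNAs, where it differed by 0.11 log2 (adjusted p = 0.694).

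NK cell markers rose in 2 of 3 tested genes, beside 10.5% of all genes tested. Their summed signal was 7.22 to 7.59 log2 in knockout and 5.69 to 6.25 in WT. The defining NK receptor gene Ncr1 was dim. T cell markers rose or fell in none of 5, with a summed signal of 7.08 to 7.21 log2 in knockout and 7.20 to 7.41 in WT. The part of these cells in the Ccl5 value was not tested.

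Ccl3, a macrophage inflammatory protein that binds CCR1, read 4.59, 4.34 and 4.49 log2 in knockout livers, against 3.97, 3.94 and 3.76 log2 in WT livers. It rose by 0.58 log2 (SE 0.11, 1.50-fold, adjusted p = 0.0110) and differed by -0.16 with arrays centred on the added control RNAs. Ccl4, its close relative, was higher in all 3 knockout livers, at 5.64, 5.98 and 5.86 log2 in knockout, against 5.57, 5.57 and 5.43 log2 in WT. The Ccl4 difference of 0.30 log2 (SE 0.13, adjusted p = 0.129) did not pass.

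Ccl2, the main attractant of inflammatory monocytes through CCR2, read 4.42, 4.01 and 4.39 log2 in knockout livers, against 3.88, 3.90 and 3.82 log2 in WT livers. The groups did not overlap, and the difference of 0.41 log2 (SE 0.13, 95% confidence interval 0.10 to 0.71) did not pass (adjusted p = 0.0675). It passed without knockout replicate 2 (0.54 log2, adjusted p = 0.0297) and with quantile normalization (0.44, adjusted p = 0.0467). Ccl7 and Ccl12, further CCR2 ligands, were dim in both groups and differed by 0.030 and 0.015 log2. Ccl8 differed by 0.021 log2 (95% confidence interval -0.25 to 0.29) and Ccl24, an eosinophil attractant of macrophages, by -0.36 (95% confidence interval -0.85 to 0.13).

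Ccl27a, a ligand of CCR10 best known from skin, was the gene that fell. It read 3.68, 3.91 and 4.44 log2 in knockout livers, against 5.25, 5.06 and 5.27 log2 in WT livers. All knockout livers were lower, and Ccl27a fell by 1.18 log2 (SE 0.19, limma adjusted p = 0.00487). By its type, the probe set may cross-hybridise with transcripts of similar sequence. A pair of further probe sets is annotated to Ccl27a together with near-identical copies of it and so is not among the members. They read 5.35 to 5.59 log2 in knockout livers, against 6.34 to 6.55 in WT, and 5.17 to 5.59 in knockout, against 5.97 to 6.35 in WT. They fell by 0.92 and 0.83 log2 in the fit over all probe sets (adjusted p = 0.00299 and 0.0113). The probe set shared by Ccl21a and its copies, ligands of CCR7, fell by 0.60 log2 (adjusted p = 0.0142), whereas that of Ccl19 and its copies, the other CCR7 ligand, differed by 0.054 (adjusted p = 0.841) without passing. Which of the copies these signals come from cannot be told apart.

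Ccl28, the other CCR10 ligand, read 4.16, 4.23 and 4.13 log2 in knockout livers, against 4.46, 4.37 and 4.42 log2 in WT livers. Its groups did not overlap, and the difference of -0.24 log2 did not pass (adjusted p = 0.117). Ccl25, a gut and thymus chemokine that binds CCR9, differed by -0.45 log2 (adjusted p = 0.0938), again without overlap. Ccr10 differed by -0.0068 log2 (95% confidence interval -0.30 to 0.28), and the 5 probe sets of Ccr9, all dim, by -0.097 to 0.18. Cx3cl1, a membrane-bound chemokine, differed by -0.19 log2 on its brightest probe set and by -0.13 to 0.11 on the other 3, and Xcl1, a product of T and NK cells, was dim and differed by -0.043.

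**Figure D4:**
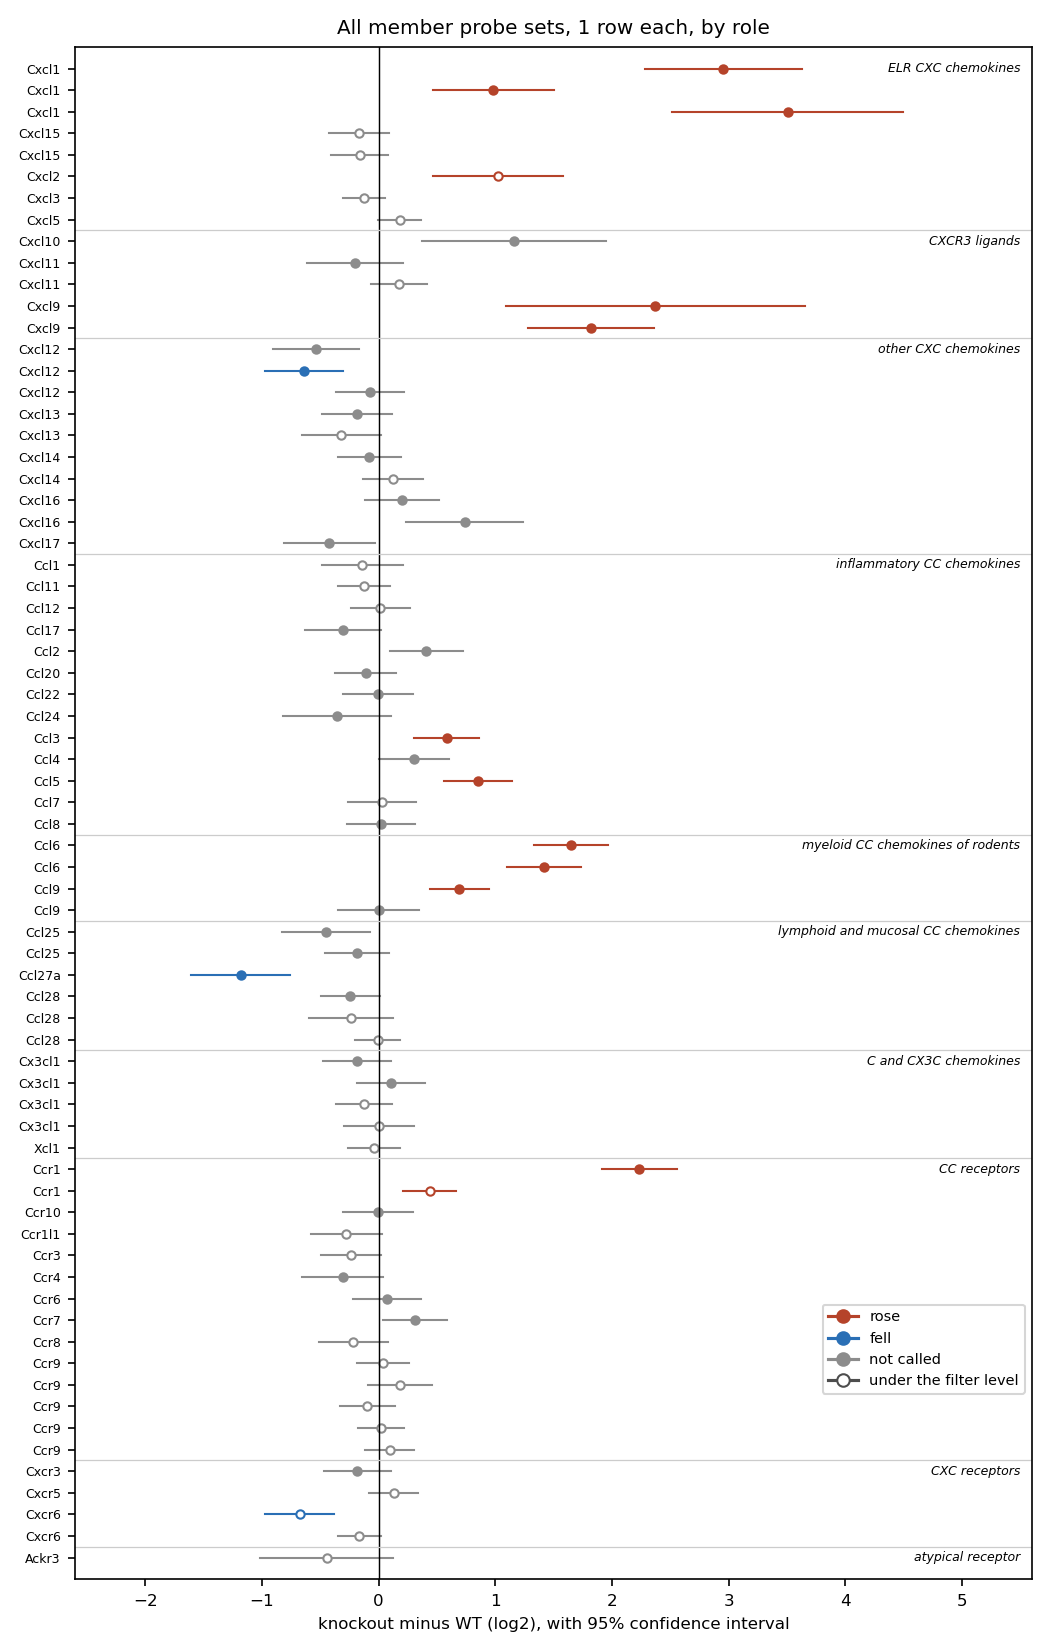
Difference between knockout and WT (log2) of each of the 70 member probe sets in the fit over all probe sets, 1 row each, grouped by role. Points are differences, lines 95% confidence intervals, and open points are probe sets under the 3.58 log2 level. Of the 70, 13 rose and 3 fell, and most intervals in the lymphoid, CX3C and receptor groups span 0.

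Ccr1, the receptor of Ccl3, Ccl5, Ccl6 and Ccl9 on neutrophils, monocytes and macrophages, was the receptor that rose. It read 4.94, 5.05 and 4.97 log2 in knockout livers, against 2.99, 2.78 and 2.48 log2 in WT livers. The knockout livers were nearly equal, and all WT values lay in the dim range, so that the gene entered the test through the knockout group. Ccr1 rose by 2.23 log2 (SE 0.14, 4.70-fold, limma adjusted p = 7.60e-05), a fold that background limits. The second Ccr1 probe set, dim in both groups, rose by 0.44 log2 (SE 0.10, adjusted p = 0.0260) in the fit over all probe sets, and differed by -0.31 with arrays centred on the added control RNAs. That call was lost without knockout replicate 1 (0.41 log2, adjusted p = 0.0947), knockout replicate 2 (0.37, adjusted p = 0.0950), WT replicate 2 (0.44, adjusted p = 0.0675) and likewise WT replicate 3 (0.39, adjusted p = 0.0665).

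Neutrophil and monocyte markers moved with Ccr1, whereas Kupffer cell markers were called in both directions. All 11 tested neutrophil markers rose, of 13 listed, and their summed signal was 13.74 to 13.92 log2 in knockout, against 9.11 to 9.44 in WT. All 6 tested monocyte markers rose, of 8 listed, with summed signals of 12.62 to 12.96 log2 in knockout and 11.81 to 12.20 in WT. Fn1 alone averaged 12.49 log2 in knockout and 11.93 in WT, so that this sum reads mainly Fn1. Beside these counts, 10.5% of all genes tested rose and 8.09% fell. Mmp8 and Cd177 of the neutrophil list and F13a1 of the monocyte list had WT means in the dim range. They entered the test through the knockout group. Of 12 Kupffer cell markers, 1 rose and 5 fell, and the summed signal overlapped, at 12.23 to 12.37 log2 in knockout and 11.84 to 12.57 in WT. Cd5l, which rose by 1.15 log2, averaged 10.69 log2 in knockout. Those that fell, Clec4f (-2.82 log2), Vsig4 (-2.30), Cd163 (-2.02), Folr2 (-1.94) and Timd4 (-1.32), averaged 3.21 to 6.39 log2 there. The sum in knockout thus reads Cd5l far more than these 5. The part of these cells in the values of Cxcl1, Cxcl2, Ccl6, Ccl9 and Ccr1 was not tested.

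The lymphocyte receptors showed no rise. Ccr7, which guides T cells and dendritic cells to lymph nodes, read 4.61, 4.35 and 4.42 log2 in knockout livers, against 4.16, 4.08 and 4.22 log2 in WT livers, without overlap. Its difference of 0.31 log2 (SE 0.11, adjusted p = 0.0905) did not pass. Ccr6, the receptor of Ccl20, differed by 0.069 log2 (95% confidence interval -0.20 to 0.34) and Ccr4 by -0.31 (-0.66 to 0.046). Cxcr5, the receptor of Cxcl13 on B cells, was dim and differed by 0.13 log2 (95% confidence interval -0.080 to 0.34). B cell markers rose in 4 of 5 tested genes, beside 10.5% of all genes tested, and summed to 8.43 to 8.80 log2 in knockout and 6.89 to 7.10 in WT. Pou2af1, 1 of the 4, had a WT mean in the dim range and entered the test through the knockout group.

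Cxcr6, which marks liver-resident T, NK and NKT cells, was dim, and 1 of its 2 probe sets fell. That probe set read 2.43, 2.88 and 2.80 log2 in knockout livers, against 3.49, 3.32 and 3.32 log2 in WT livers. All knockout values were lower, and Cxcr6 fell by 0.68 log2 (SE 0.13, adjusted p = 0.0121) in the fit over all probe sets, a call kept in 6 of 6 fits that left out 1 array. The other differed by -0.17 log2. T cell markers rose or fell in none of 5, and NK cell markers rose in 2 of 3, with the summed signals given above. Their part in the Cxcr6 value was not tested. Ackr3, a scavenger of Cxcl12, was dim by its mean over all arrays and differed by -0.45 log2 (95% confidence interval -1.01 to 0.12).

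The 16 genes with no probe set past the dim level held 22 probe sets. In the fit over all probe sets 1 of these rose (Cxcl2), 1 fell (Cxcr6) and 20 were not called, with differences of -0.45 to 0.18 log2. Of the 16 members with several probe sets, 4 had more than 1 called, Cxcl1, Cxcl9, Ccl6 and Ccr1, and none had probe sets called in opposite directions.

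The receptors left out by the rule bind several of these ligands. Ccr2, the receptor of Ccl2, rose by 2.33 log2 (SE 0.27) on its brightest probe set. In the fit over all probe sets a second Ccr2 probe set rose by 1.58 log2, while the other 2 differed by 0.46 (adjusted p = 0.0765) and 0.19 (adjusted p = 0.382) without passing. Cxcr4, the receptor of Cxcl12, rose by 3.31 log2 (SE 0.19), and its WT values were dim. Cxcr2, the receptor of Cxcl1 and Cxcl2, differed by 0.18 log2 (SE 0.14, adjusted p = 0.389), and Cx3cr1, the receptor of Cx3cl1, by 0.45 (SE 0.14, adjusted p = 0.0558). Of 13 chemokine and receptor genes outside the rule, 10 were tested, 4 rose and none fell. Beside this, 10.5% of all genes tested rose and 8.09% fell. The 4 were Ccr2, Cxcr4 and the platelet chemokines Ppbp and Pf4.

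Intracellular chemokine receptor signalling was followed with a list of 33 genes, of which 29 were tested, 16 rose and none fell, beside 10.5% of all genes tested that rose and 8.09% that fell. The list holds genes that leukocytes express, such as Rac2, Was, Fgr and Dock2, and the neutrophil and monocyte markers given above rose with it; their part in this count was not tested. The list's median difference was 0.69 log2, against -0.047 over all genes. Those with the smallest adjusted p were the regulators of G protein signalling Rgs1 (1.80 log2, SE 0.17), Rgs2 (2.28, SE 0.23) and Rgs18 (2.56, SE 0.28, with a WT mean in the dim range, so that background limits the value), which shorten the signal of G protein-coupled receptors. With arrays centred on the added control RNAs, 7 genes of this list rose and 8 fell. With the same centring 377 of all 13370 genes tested rose and 10120 fell. Of 12 tested inducers of chemokines and NF-kappaB feedback genes, 6 rose and none fell, and 3 rose and 4 fell with that centring. The 6 were Nfkbiz (2.74, SE 0.31), Tnfaip3 (2.63, SE 0.32), Nfkbia (0.99, SE 0.13), Relb, Icam1 and Birc3, with Relb dim in WT. None of the cytokines tested was called: Tnf differed by 0.027 log2, Il1b by 0.44, Il1a by -0.15 and Csf3 by 0.011. The inducers Il6, Ifng and Il17a were not tested. Of 14 tested genes that cleave chemokines or present them on the cell surface, 7 rose and 2 fell. The neutrophil collagenase Mmp8 rose by 2.97 log2 (SE 0.17), again from a WT mean in the dim range, and Mmp9 by 1.35 (SE 0.18), while Dpp4, a peptidase that trims and inactivates Cxcl9, Cxcl10 and Cxcl12, fell by 1.14 (SE 0.15).

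Chemokine genes lie in runs along the chromosomes, and the genes that rose were neighbours in part. Gene order was taken from the GRCm38.p6 annotation. In the run of Ccl5, Ccl9, Ccl6, Ccl3 and Ccl4 on chromosome 11, 5 adjacent protein-coding genes, 4 rose, by 0.58 to 1.65 log2. Among all genes tested 10.5% rose. Ccl3 and Ccl9 did not rise with centring on the added control RNAs, and Ccl4 did not pass. Whether genes of a run rise together more than other genes was not tested. In the other run on chromosome 11, Ccl2, Ccl7, Ccl11, Ccl12, Ccl8 and Ccl1, also adjacent, 2 of 6 genes were tested and none of the 6 was called in either fit.

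In the run from Cxcl5 to Cxcl2 on chromosome 5, Cxcl1 and, in the fit over all probe sets, Cxcl2 were the called members of 5, at one end. Between Cxcl5 and Cxcl3 lie Ppbp and Pf4, chemokines of platelets whose names put them outside the rule, and these rose by 3.73 log2 (SE 0.27) and 2.65 (SE 0.33). Pf4 was named after its values were seen. Cxcl9 and Cxcl10 form another run on chromosome 5, separated by 1 gene. In the run from Ccr9 to Ccr3 on chromosome 9, Ccr1 rose while its neighbours Ccr1l1 and Ccr3, both dim, differed by -0.28 and -0.24 log2.

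**Figure D5:**
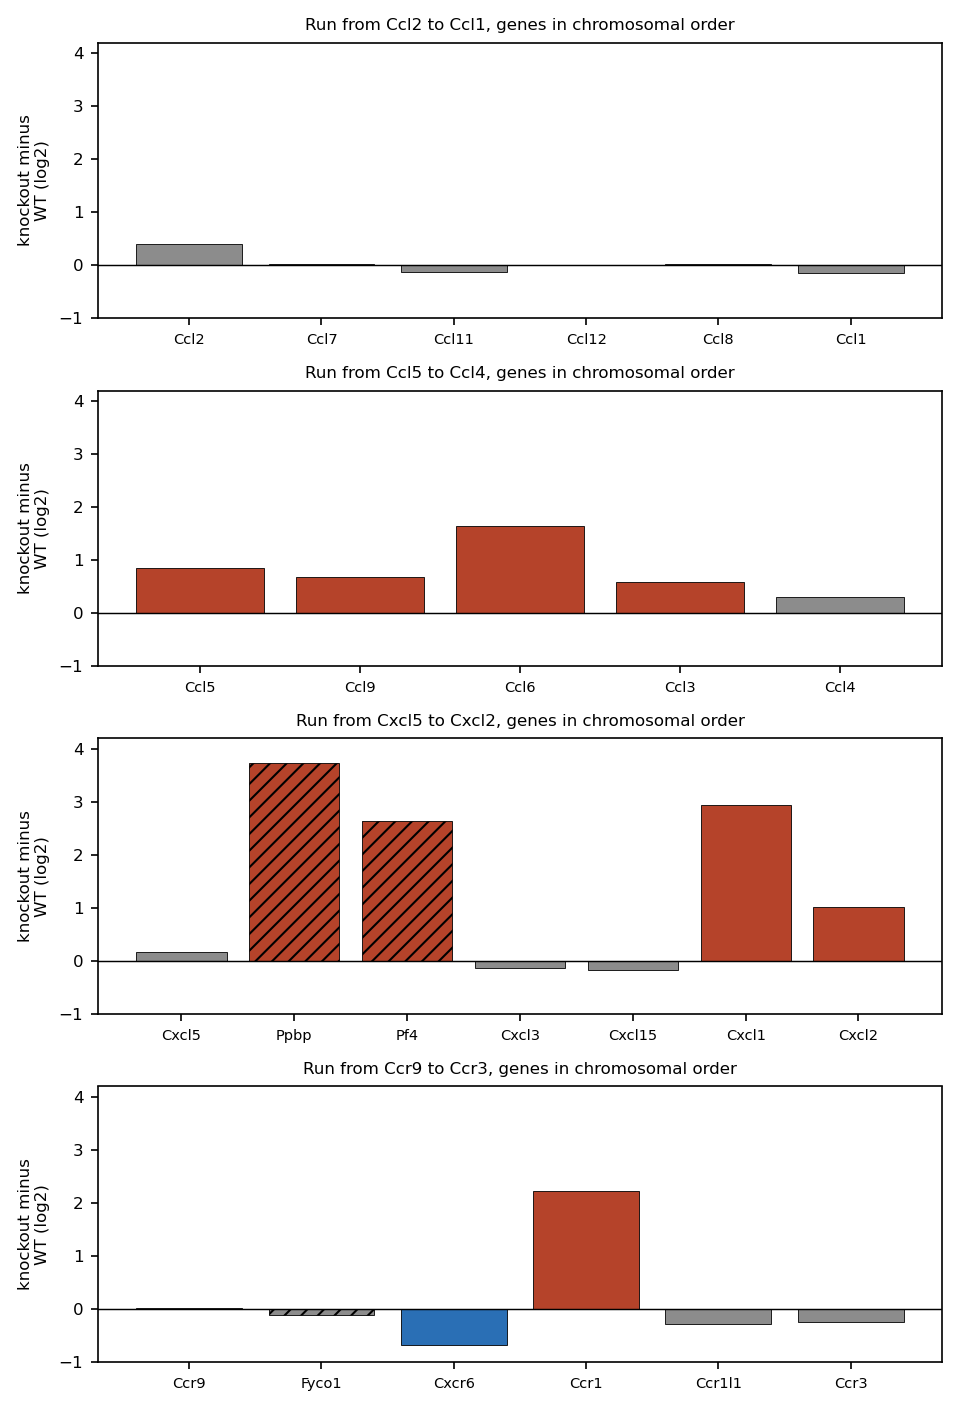
Difference between knockout and WT (log2) of genes in 4 chromosomal runs, in gene order and not to distance, by the brightest probe set of each, with members read from the fit over all probe sets; Xcr1, dim and not a member, is not drawn. Red bars rose, blue bars fell and grey bars were not called; hatched bars are genes that are not members. In the second run 4 of 5 genes rose (Ccl3 and Ccl9 not with centring on the added control RNAs), in the first none of 6, and in the third the tall bars are Ppbp, Pf4 and Cxcl1. Of all probe sets, 5.92% rose in the fit over all probe sets.

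The count of called members moved with centring on the added control RNAs, but little with other scales. With median centring 7 member genes rose and 1 fell, and with quantile normalization 8 rose and 1 fell. With each array centred on the control RNAs added before labelling, the median of all genes moved to -0.80 log2 and that of the 30 member genes to -0.76. On that scale 4 member genes were called higher, Cxcl1 (2.20 log2), Cxcl9 (1.62), Ccl6 (0.90) and Ccr1 (1.49), and 19 lower, with Ccl27a at -1.93. Among all 13370 genes tested, 377 were called higher and 10120 lower with this centring. It moves all genes of an array together, by the level of the controls, which ran from 8.52 to 9.07 log2 in knockout and 7.99 to 8.08 in WT. The error of that level is shared by all genes, and the calls on this scale do not allow for it. Ccl2, Ccl4 and Ccr7, higher in all knockout livers as deposited, differed by -0.34, -0.45 and -0.44 log2 on that scale without passing.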

How the data were processed

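The deposited values are log2 signals, 1 per probe set and array, made by the authors. MAS5 is named in the submitters' processing notes, with neither version nor role. How background, scaling and probe summaries were handled is not stated there, and that the values are log2 was settled from their range. No detection calls were used.

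Genotypes were taken from the labels, and replicates, separate mice, are numbered only to name them. Of 45101 probe sets, 64 were controls, 34958 had 1 symbol, 932 several and 9211 none. The genotype effect was estimated in limma 3.58.1 under R 4.3.3 (lmFit, eBayes with intensity trend, two-sided, no covariates, no further normalization) in a gene fit (brightest probe set, mean at or above the 40th percentile) and in a fit over all 45037 probe sets without a filter. Confidence intervals are 95%. Summed signals are log2 of the sum of linear signals over a list's tested genes. With 3 against 3 arrays an exact permutation test cannot go below p = 0.1, so these sums were given as ranges. The fits were tested on simulated data.

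Members and lists were chosen with earlier results of these data known. Named are all called members, the uncalled ones with the highest means in each role group, and up to 3 genes per list with the smallest adjusted p. Alternatives were no filter, a 60th percentile filter, quantile normalization, median or poly-A control centring (24 probe sets), no trend, weights for array quality, averaging the probe sets of each gene, every probe set on its own, and leaving out each array.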

Additional observations from a re-analysis of the deposited data

How the results depend on the processing

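Of the 30 genes tested, 7 rose and 1 fell, and these counts were 6 to 8 and 1 to 2 when single arrays were left out. The counts over 70 probe sets, 13 and 3, were 9 to 12 and 2 to 3. A filter at the 60th percentile left 5 rises and 0 falls, since dimmer genes, Ccl27a among them, were no longer tested, and no filter gave 8 rises and 2 falls. Among all 13370 genes tested, centring arrays on the poly-A controls gave 377 rises and 10120 falls. This centring carries an error shared by all genes, which its calls do not allow for. Among members it gave 4 rises and 19 falls over genes and 7 and 52 over probe sets. It reversed Ccl3 (-0.16 log2), Ccl9 (-0.056), Cxcl16 (-0.55), Ccl8 (-0.73) and Ccr6 (-0.68), by its own construction, since it lowers every difference by 0.75. Cxcl9 also lost its call with array quality weights (1.79 log2, adjusted p = 0.0671); the cause was not tested. Apart from poly-A centring, Cxcl1, Ccl5 and Ccl6 kept their call under 14 of 14 alternatives and Ccl3, Ccl27a and Ccr1 under 13 of 13. In the fit over all probe sets, however, Ccl3 lost its call without knockout replicate 1 (0.53 log2, limma adjusted p = 0.0750). No paired analysis was possible because the labels give no replicate numbers that groups share. Folds from signals near background are uncertain, which limits Ccr1, Cxcl2 and Cxcr6.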
